A study of Mus musculus with 63 samples.

Results

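The Reg lectins are a family of small secreted proteins with a C-type lectin fold, and this report describes the transcripts of *Reg1*, *Reg3a*, *Reg3b*, *Reg3g* and *Reg4* in small intestinal tumours of the mouse. They were chosen by their gene symbols, and all 5 were found among the 24766 genes of the expression table. The samples came from 1 female and 1 male mouse that carried an inducible Cre driven by the villin promoter, which is active in intestinal epithelium, a single conditional *Apc* allele (labelled Apchet) and the R26R-Confetti colour reporter. Both mice received 4 mg tamoxifen intraperitoneally when older than 8 weeks and 200 mg/kg of the mutagen ENU 10 days later, so that no group was free of either agent. RNA from microdissected tumours was sequenced in 63 libraries. From each of 20 tumours made of differently coloured clones, 10 in each mouse, the major and the minor clone (the larger and the smaller contributor) were sequenced apart, which gave 20 major and 20 minor clone libraries, and 23 further tumours were sequenced undivided (10 female, 13 male). The labels do not tell which of the undivided tumours the study counted as monoclonal, so all 23 were used. Every group therefore came from the same 2 animals, and the labels SI10, SI20 and SI30 place each tumour in a segment of the small intestine. Mouse and sex coincide and cannot be told apart.

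*Reg3b* and *Reg3g* are bactericidal lectins of the gut surface. Enterocytes and Paneth cells secrete them, bacterial signals through MyD88 and the cytokine IL-22 through STAT3 are known to induce them, and *Reg3g* binds the peptidoglycan of Gram-positive bacteria. *Reg3a* belongs to the same subfamily. *Reg1* (also called pancreatic stone protein) is abundant in pancreatic acinar cells and is also made by the proximal intestine. *Reg4* stands apart in sequence and is used as a marker of enteroendocrine cells in the small intestine and of deep crypt secretory cells in the colon.

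On the GRCm39 assembly 4 of the members lie in 1 cluster on chromosome 6. *Reg3b* (ENSMUSG00000071356) spans chr6:78347640-78350455 on the plus strand, *Reg3a* (ENSMUSG00000079516) chr6:78357692-78360810 on the plus strand, *Reg1* (ENSMUSG00000059654) chr6:78399694-78405828 on the plus strand and *Reg3g* (ENSMUSG00000030017) chr6:78443246-78445859 on the minus strand. The other Reg genes of the table, *Reg3d* and *Reg2*, lie between them, and the annotation places no further gene in these 98.2 kb. *Reg4* (ENSMUSG00000027876) lies apart at chr3:98129468-98144066 on the plus strand. Within the coding sequence, *Reg3b* and *Reg3g* shared 76.0% of aligned bases, *Reg3a* shared 73.6% with *Reg3b* and 73.2% with *Reg3g*, and *Reg4* shared 49.8% to 53.9% with the other members. No stretch of 50 bases was shared between the canonical transcripts of any pair of members, and 5 of the 759 words of 31 bases in *Reg3b* also stood in *Reg3g*.

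The 250 bases before the RefSeq start of *Reg3b*, *Reg3g* and *Reg3a* are printed because the levels of *Reg3b* and *Reg3g* ran together in these tumours while *Reg3a* differed from them. They are RefSeq sequences (table of GRCm38.p6), found unchanged in GRCm39 at chr6:78347618-78347867 (plus strand, *Reg3b*), chr6:78445858-78446107 (minus strand, *Reg3g*) and chr6:78357442-78357691 (plus strand, *Reg3a*). Most of the *Reg3b* window lies inside the gene span given above, because that span begins upstream of the RefSeq start. Capitals mark TATAAA (the TATA box) and TTCNNNGAA (the pattern bound by STAT factors) on either strand.
Reg3b: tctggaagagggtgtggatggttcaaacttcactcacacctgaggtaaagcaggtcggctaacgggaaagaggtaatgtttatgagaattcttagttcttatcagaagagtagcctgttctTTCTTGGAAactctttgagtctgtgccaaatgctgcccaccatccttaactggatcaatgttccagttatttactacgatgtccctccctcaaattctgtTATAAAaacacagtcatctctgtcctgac
Reg3g: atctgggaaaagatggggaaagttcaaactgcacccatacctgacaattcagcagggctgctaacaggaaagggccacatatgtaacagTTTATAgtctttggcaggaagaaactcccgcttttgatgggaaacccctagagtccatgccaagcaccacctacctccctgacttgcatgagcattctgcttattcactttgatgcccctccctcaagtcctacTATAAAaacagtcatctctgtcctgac
Reg3a: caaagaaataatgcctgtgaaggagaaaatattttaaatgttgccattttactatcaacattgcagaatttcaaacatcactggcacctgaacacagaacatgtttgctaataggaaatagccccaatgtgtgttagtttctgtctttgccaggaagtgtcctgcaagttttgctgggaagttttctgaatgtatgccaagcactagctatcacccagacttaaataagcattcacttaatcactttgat
These upstream stretches were 68.4% identical between *Reg3b* and *Reg3g*, against 44.9% to 49.5% for every other pair of members. The longest run that *Reg3b* and *Reg3g* had in common was acagtcatctctgtcctgac, the last 20 bases before each start, and no other pair of members shared more than 12 bases in a row. A TATAAA stood 29 bases before the RefSeq start of *Reg3b*, 27 before that of *Reg3g* and 30 before that of *Reg1*, and neither *Reg3a* nor *Reg4* held one in this window. The *Reg1* window (chr6:78402716-78402965) lies wholly inside the gene span given above. *Reg3b* was the only member with TTCNNNGAA, at 129 bases before the start. Of all 32841 RefSeq mouse promoters of this length, 12.4% held TATAAA and 7.02% held TTCNNNGAA, and a match in these letters is a description of the sequence only.

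The deposited values are gene counts estimated by the authors from the reads and scaled between libraries, here called the signal. The signal of a library summed to between 2.61e+07 and 4.59e+07. Unscaled counts were not used here, so the depth behind a value is unknown, and errors are those of tumours that differ. Each of 10 epithelial markers was present in every library (the lowest value was 574, of *Cdx1*), and *Epcam*, an epithelial adhesion protein, ran from 31001 to 74424. The ribosomal transcript *Rn18s* was lower in major than in minor clones (log2 difference -1.46, limma adjusted p = 0.0375). All p-values measure the spread between tumours of these 2 mice.

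*Reg3b* and *Reg3g* were among the most abundant transcripts of the tumours. *Reg3b* had a signal of 1259 at the lowest, 115653 at the median and 742002 at the highest over the 63 libraries. Its median rank among all genes was 14, and in the library where it stood highest it was number 2. *Reg3g* ran from 257 through a median of 35211 to 211493 (median rank 93), and *Reg1* from 476 through 5375 to 93446. *Reg4* ran from 263 through 2775 to 7386, and *Reg3a* was the lowest at 30.7 through 356 to 2698. The 5 members together took between 0.0540% and 2.53% of a library's signal, with a median of 0.516%. Per kilobase of the canonical transcript, the medians were 146582 for *Reg3b*, 45258 for *Reg3g*, 5670 for *Reg1*, 2702 for *Reg4* and 432 for *Reg3a*, and this order held in 36 libraries. *Reg3b* exceeded *Reg3g* per kilobase in all 63 libraries, *Reg3g* exceeded *Reg1* in 58 and *Reg4* exceeded *Reg3a* in 61. *Reg1* exceeded *Reg4* in 43 libraries only, and the median difference of 0.84 on the log2 scale per kilobase was small beside its range of -2.55 to 6.46, so these neighbours did not differ beyond their spread. Of the other Reg genes, *Reg2* reached at most 65.6 and *Reg3d* at most 14.4, and both were listed at 0 in many libraries (31 and 17 of 63), so neither entered a test.

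**Figure D1:**
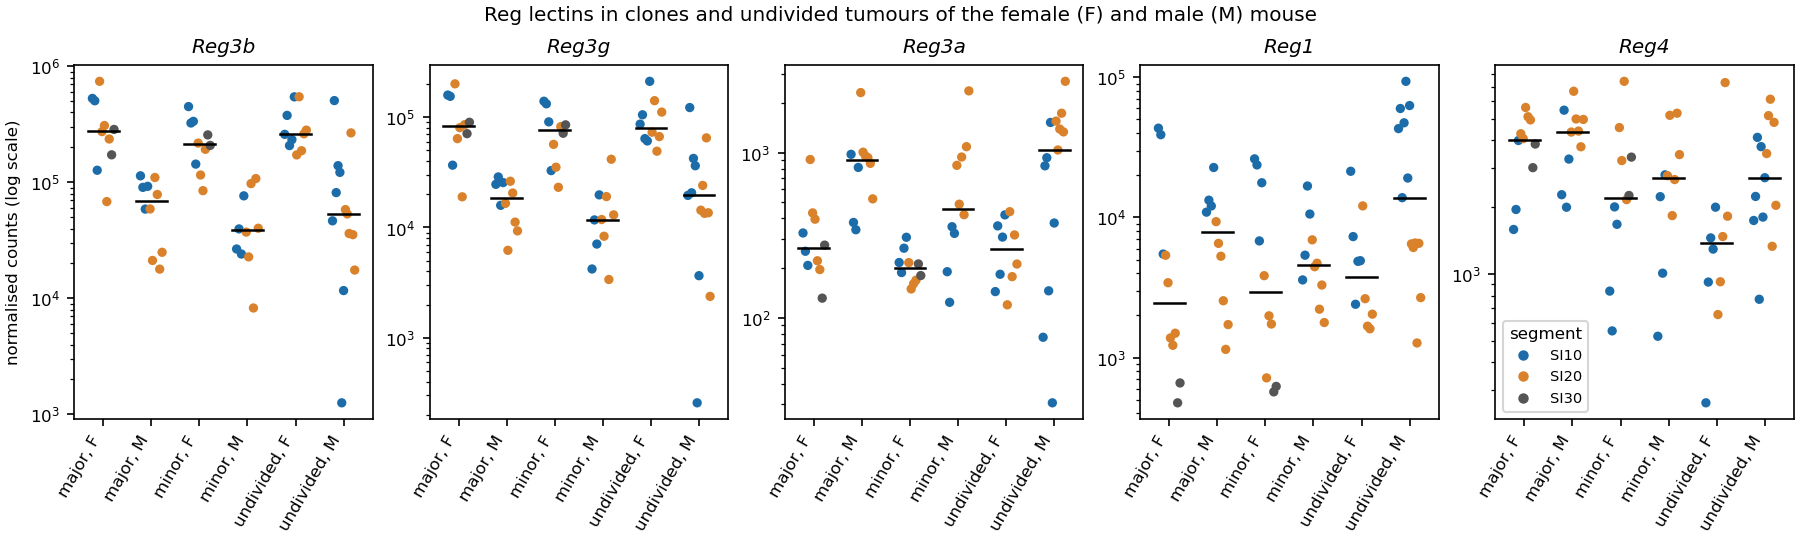
Signal of each Reg gene on a log scale, 1 point for each library, by class (major clone, minor clone, undivided tumour) and mouse, coloured by segment, with a bar at the median. The medians of Reg3b and Reg3g are higher in the female than in the male mouse in each class, while that of Reg3a is higher in the male mouse, and the libraries of the mice overlap.

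The members varied more from tumour to tumour than most genes. After the mean of each mouse was removed, the SD of log2(value + 1) was 1.77 for *Reg1*, larger than that of 97.0% of the 16489 genes with a mean of at least 10. It was 1.29 for *Reg3g*, 1.26 for *Reg3b*, 1.14 for *Reg3a* and 1.02 for *Reg4*, against 0.45 for the median gene. From the lowest to the highest library, *Reg3g* differed 823-fold, *Reg3b* 589-fold, *Reg1* 196-fold, *Reg3a* 88.0-fold and *Reg4* 28.1-fold. The lowest *Reg3b*, *Reg3g* and *Reg3a* values all came from undivided tumour 15 of the male mouse.

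*Reg3b* and *Reg3g* kept a nearly fixed ratio across this range. Their log2 levels correlated at r = 0.96 over the 63 libraries after centring within each mouse (0.95 within the female and 0.96 within the male libraries). *Reg3b* minus *Reg3g* had a median of 1.77 on the log2 scale and an SD of 0.37, with a range of 0.68 to 2.89. *Reg3a* followed them loosely, at r = 0.45 with *Reg3b* and 0.41 with *Reg3g*. *Reg1* and *Reg4* ran in opposite directions (r = -0.42), at -0.59 in the female and -0.18 in the male libraries. Differences between segments were not removed here, and the estimates of *Reg1* and *Reg4* along the intestine, given below, had opposite signs. These values are descriptions over libraries that share 2 animals and, for the clones, 20 tumours.

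**Figure D2:**
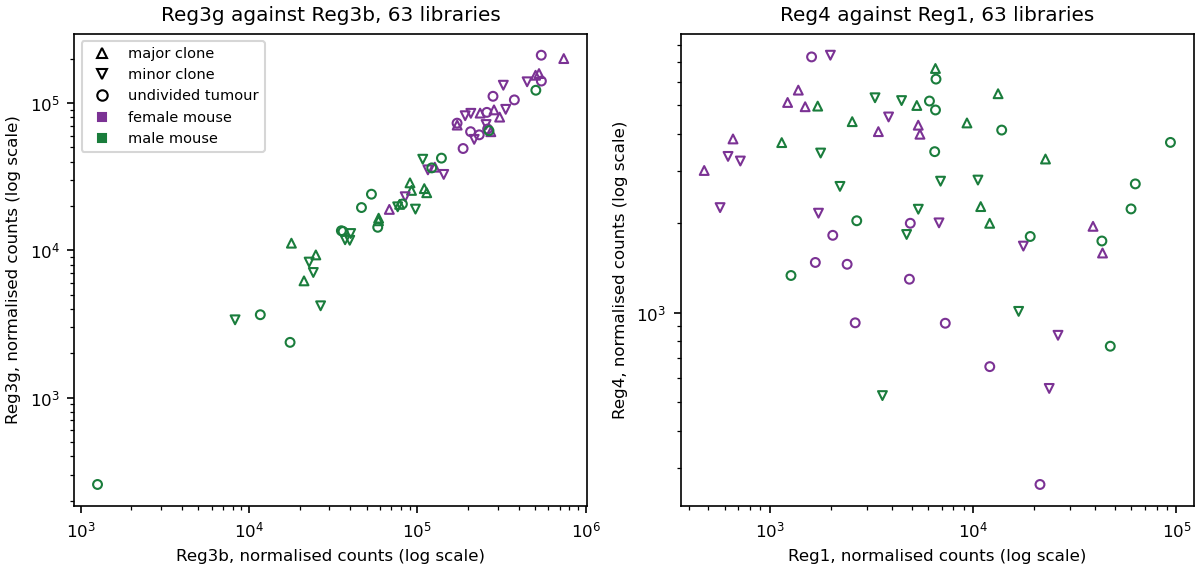
Signal of Reg3g against Reg3b (left) and of Reg4 against Reg1 (right) on log scales, 1 point for each of the 63 libraries, by class and mouse. The points of the left panel lie along a narrow diagonal in both mice, and those of the right panel fall in a broad cloud.

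The comparison of major with minor clones asks which transcripts differ between clones that share a tumour. *Reg4* was the only member past the threshold of an adjusted p of 0.05, while 3 of the 5 had an unadjusted p under 0.05. It rose in major clones by 0.74 on the log2 scale (SE 0.15, 95% confidence interval 0.44 to 1.04), a 1.67-fold higher signal (limma with tumour as block, adjusted p = 0.0230). In major clones *Reg4* ran from 1588 through a median of 4183 to 6662 and in minor clones from 525 through 2463 to 7386, so the classes overlapped and the difference lay within tumours. It was higher in the major clone of 17 of 20 tumours (8 of 10 female, 9 of 10 male). The exceptions were tumours 24 and 27 of the female mouse and tumour 29 of the male mouse, and the widest difference was in tumour 19 of the male mouse, with a signal of 2278 in the major and 525 in the minor clone. Of all 16428 genes tested in this comparison, 1.14% (188 genes) passed the threshold, a count that ran from 25 without tumour 20 of the male mouse to 859 without tumour 19 of the female mouse. Without the pairing by tumour, the same difference did not pass (adjusted p = 0.194), nor did it within the female mouse alone (log2 difference 0.70, adjusted p = 0.659) or the male mouse alone (0.78, adjusted p = 0.0843). It was also lost without tumour 20 of the male mouse (0.71, adjusted p = 0.0514) and, in an alternative chosen after the data were seen, without the SI30 tumours and tumour 22 of the female mouse, whose clones carry different segment labels (adjusted p = 0.0588).

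The other lectins did not pass in this comparison. *Reg3a* was higher in the major clone of 15 of 20 tumours, with a mean log2 difference of 0.58 (95% confidence interval 0.13 to 1.02, adjusted p = 0.117). Its widest difference against that direction was -2.17 in tumour 31 of the male mouse, without which *Reg3a* passed (0.72, adjusted p = 0.0383). *Reg3g* was higher in 15 tumours (0.45, adjusted p = 0.205) and *Reg3b* in 14 (0.45, adjusted p = 0.282), and both spread widely. The log2 difference of *Reg3b* was 3.25 in tumour 28 of the male mouse and -2.59 in its tumour 29, and *Reg3g* had its extremes in the same tumours (2.61 and -1.89). *Reg1* was higher in 11 of 20 tumours, with a mean difference of 0.12 (95% confidence interval -0.24 to 0.49, adjusted p = 0.723).

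**Figure D3:**
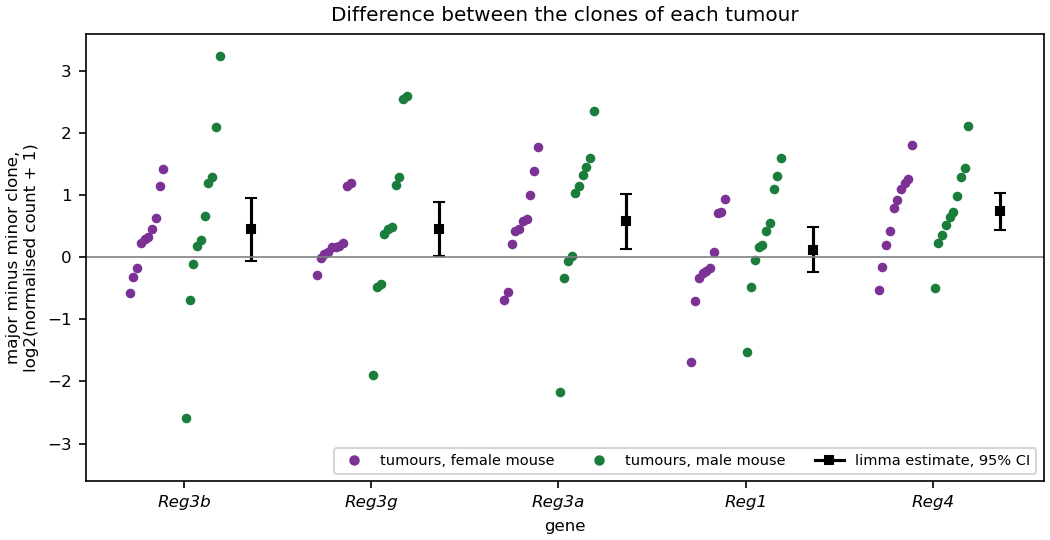
Major minus minor clone of the same tumour, as a log2 difference in signal, 1 point for each of 20 tumours coloured by mouse, with the limma estimate and its 95% confidence interval. For Reg4, 17 of 20 tumours lie above 0, while the points of Reg3b range from -2.59 to 3.25.

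Some goblet and enteroendocrine markers were also higher in major clones, against the 1.14% of all genes called in either direction. Of 10 goblet cell markers, 3 rose in major clones and none fell (median log2 difference of the list 0.60): *Clca1*, a secreted mucus component (log2 difference 0.70, adjusted p = 0.0465), *Atoh1*, the transcription factor that specifies secretory cells (0.69, adjusted p = 0.0207), and *Spink4*, a goblet cell peptide (0.63, adjusted p = 0.0238). The summed signal of the 10 goblet markers ran from 72003 through 137327 to 246461 in major and from 16339 through 106938 to 211312 in minor clones, and none was listed at 0 in any library. Of 12 enteroendocrine markers tested, 3 rose and none fell (median 0.53): *Neurog3*, the factor that starts enteroendocrine differentiation (0.92, adjusted p = 0.0438), *Chgb*, a granin of hormone granules (0.89, adjusted p = 0.0207), and *Tph1*, which makes serotonin (0.72, adjusted p = 0.0334). Their summed level ran from 2270 through 5111 to 9875 in major and from 1640 through 3219 to 7982 in minor clones. None of 7 tuft cell markers tested passed (median 0.01), and the median log2 difference over all genes was 0.01. The part of these cell types in the *Reg4* difference was not tested, nor was that of *Rn18s*, and in bulk tissue fewer cells of a type and less RNA per cell cannot be told apart.

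The tested genes of the pathway that induces the Reg3 lectins did not pass between clones. The list of ligands held the IL-22, IL-6 and IL-17 families and also *Il23a*, *Il1b*, *Il18*, *Il33* and *Tnf*. None of its 10 tested genes passed the threshold, nor did 9 receptors, 9 STAT3 signalling and feedback genes or 13 microbial sensing genes. In that order, the list medians were 0.27, 0.04, 0.10 and 0.01. *Il22* itself was listed at 0 in 36 of 63 libraries and reached at most 20.5. Its mean was under 10, so *Il22* was not tested. *Stat3* had a log2 difference of 0.10 (adjusted p = 0.313) and *Myd88*, the adaptor of bacterial sensing, of -0.03 (adjusted p = 0.839). Of 22 epithelial defence genes (median 0.34), 1 rose in major clones: *Pigr*, which carries IgA across the epithelium (0.73, adjusted p = 0.0291). None of 11 Paneth cell markers passed (median 0.30), with 0.19 for *Lyz1*, their lysozyme (adjusted p = 0.567).

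By segment, the *Reg4* difference between clones averaged 1.23 (SD 0.62) over the 7 SI10 tumours, higher in the major clone of each, and 0.45 (SD 0.67) over the 10 SI20 tumours, higher in 7. The interaction of clone and segment was -0.78 (SE 0.29, unadjusted p = 0.0148) and did not pass after adjustment (limma, adjusted p = 0.996). No gene passed that test (0%), while 658 genes had an unadjusted p under 0.05. Between the mice, the clone difference of *Reg4* differed by 0.09 (95% confidence interval -0.53 to 0.70), and no member and no gene passed (0%), with 1257 genes at an unadjusted p under 0.05.

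The levels of *Reg1* and *Reg4* in the clones of a tumour were correlated. Because the mice differed in level, correlations were computed after centring within each mouse, with permutation within mice and adjustment over the 5 members. *Reg1* in the major clone correlated with *Reg1* in the minor clone of the same tumour at r = 0.89 over 20 tumours (rho = 0.89, permutation p = 1e-05, the smallest that 100000 draws can give, adjusted p = 5e-05), and at 0.83 without the 2 tumours farthest from the median. *Reg4* correlated at r = 0.77 (adjusted permutation p = 0.00065, 0.72 without the 2 farthest tumours), although its rank correlation was 0.51 (adjusted permutation p = 0.0722). *Reg3g*, *Reg3b* and *Reg3a* had r = 0.39, 0.25 and 0.22, none of which passed (adjusted permutation p = 0.143, 0.370 and 0.383). *Reg3b* clones correlated at 0.80 within the 10 female tumours and at -0.11 within the 10 male tumours. Centred within mouse and segment, a choice made after the data were seen, over 17 tumours, *Reg1* remained at 0.56 (adjusted permutation p = 0.0312) and *Reg4* at 0.52 did not pass (adjusted permutation p = 0.267).

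Undivided tumours were set against each class of clone, with mouse as a covariate, and both comparisons use the same undivided libraries. Segment was not a covariate, and the classes differed in it. Of undivided tumours 12 came from SI10 and 11 from SI20. Of major clones 7 came from SI10, 11 from SI20 and 2 from SI30, and of minor clones 8, 10 and 2. Class and segment are therefore not separated in the values below, which matters for *Reg1* and *Reg4*, whose levels changed along the intestine. No member passed against minor clones, where 3.7% of all genes did, or against major clones, where 0.0121% did. These 610 and 2 genes ran from 274 (without the minor clone of male tumour 26) to 959 (without that of female tumour 19) and from 0 to 25 (without undivided male tumour 7) when 1 library was left out. *Reg4* in undivided tumours ran from 263 through a median of 1823 to 7289. Its log2 difference from major clones was -1.01 (SE 0.26, unadjusted p = 0.00033), which did not pass after adjustment (limma, adjusted p = 0.170), and that from minor clones was -0.27 (limma, adjusted p = 0.700). *Reg1* was 0.96 higher than in minor clones (95% confidence interval -0.05 to 1.97, adjusted p = 0.282) and 0.83 higher than in major clones (adjusted p = 0.503). *Reg3b* differed by 0.41 and *Reg3g* by 0.39 from minor clones, and by -0.05 and -0.07 from major clones. The 95% confidence intervals of the latter were -0.89 to 0.79 and -0.92 to 0.78. Without the male tumours 15, 17 and 18, a choice made after the data were seen, the differences from minor clones were 0.85 for *Reg3b* (adjusted p = 0.0781) and 0.91 for *Reg3g* (adjusted p = 0.0546), and those from major clones were 0.40 and 0.46. *Reg3a* differed by 0.29 from minor and -0.29 from major clones. Beside *Reg4*, 6 of 12 enteroendocrine markers were higher in undivided tumours than in minor clones and none was lower (median 0.85), and 1 of 10 goblet markers was higher (median -0.05).

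Position along the intestine was compared between SI20 and SI10 in the 23 undivided tumours and, separately, in 17 divided tumours with the mean of their clones as 1 value. *Reg1* fell from SI10 to SI20 in both sets. In undivided tumours its log2 difference was -2.34 (SE 0.46, limma adjusted p = 0.0313), 0.198 times the SI10 level, and in divided tumours it was -2.44 (SE 0.43, adjusted p = 0.0222), 0.185 times. Of all genes, 0.17% passed in undivided and 0.28% in divided tumours. With 1 tumour left out, these 28 and 46 genes ran from 5 (male tumour 8) to 53 (female tumour 6) and from 13 (female tumour 19) to 215 (female tumour 23). In the male mouse, undivided SI10 tumours ran from 13829 through 47282 to 93446 and SI20 tumours from 1273 through 6290 to 6573, without overlap. In the female mouse, SI10 tumours ran from 2403 through 4913 to 21335 and SI20 tumours from 1607 through 2042 to 12083, and overlapped. Among major clones *Reg1* ran from 5482 to 43309 in SI10 and from 1146 to 9332 in SI20, and the SI30 tumours, both from the female mouse, lay at 476 and 660, with 570 and 624 in their minor clones. The test of the difference between the mice gave an interaction of -2.13 (SE 0.84, unadjusted p = 0.0182) that did not pass after adjustment (adjusted p = 0.851). No gene passed it (0%), and 870 had an unadjusted p under 0.05.

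These calls changed with single tumours. Without 1 tumour at a time, *Reg1* in undivided tumours kept its direction (-2.61 to -2.10). The call was lost without tumour 2, 8, 9 or 10 of the female mouse or 1, 2, 5, 6, 7, 8, 9, 10, 17 or 18 of the male mouse (limma adjusted p between 0.0503 and 0.0689), and also without the male tumours 15, 17 and 18 together (-2.18, adjusted p = 0.173). In divided tumours the call was lost without tumours 19 or 20 of the female mouse or 22 of the male mouse (adjusted p 0.0563 to 0.0644). Acinar markers were read beside *Reg1*, since the pancreas also makes it: *Cpb1*, *Ctrb1*, *Ctrl*, *Pnlip* and *Try5*, digestive enzymes of acinar cells, had medians between 0 and 3.67 and at most 19.8 in any library, each at 0 in at least 7 libraries. The list also holds *Cela1* (998 to 4949), *Pnliprp1* (68.5 to 14474), *Clps* (126 to 2950) and *Zg16* (7779 to 110127), which were present in every library, and none of these 4 passed between segments. Their part in the *Reg1* difference was not tested.

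*Reg4* ran the other way along the intestine. In divided tumours it rose by 1.23 from SI10 to SI20 (SE 0.25, limma adjusted p = 0.0492), from 1588 through 2278 to 5476 in SI10 major clones to 3746 through 4962 to 6662 in the 10 SI20 major clones compared. The call was kept without tumours 23 of the female mouse or 20 or 23 of the male mouse and lost without any other single tumour (1.10 to 1.29, adjusted p 0.0544 to 0.150 where lost). In undivided tumours the difference was 0.68 (SE 0.39, adjusted p = 0.694). Of the goblet markers, *Guca2a*, the precursor of guanylin, also rose in divided tumours (2.02, adjusted p = 0.0026), and no enteroendocrine or Paneth marker passed in either set. *Reg3a* was 1.29 higher in SI20 in undivided (adjusted p = 0.601) and 0.74 higher in divided tumours (adjusted p = 0.241). *Reg3b* and *Reg3g* did not pass. Their differences were -0.01 each in undivided tumours, with wide 95% confidence intervals of -1.40 to 1.39 and -1.48 to 1.46. In divided tumours they were -0.66 for *Reg3b* (-1.38 to 0.05, adjusted p = 0.371) and -0.48 for *Reg3g* (-1.23 to 0.28, adjusted p = 0.522).

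**Figure D4:**
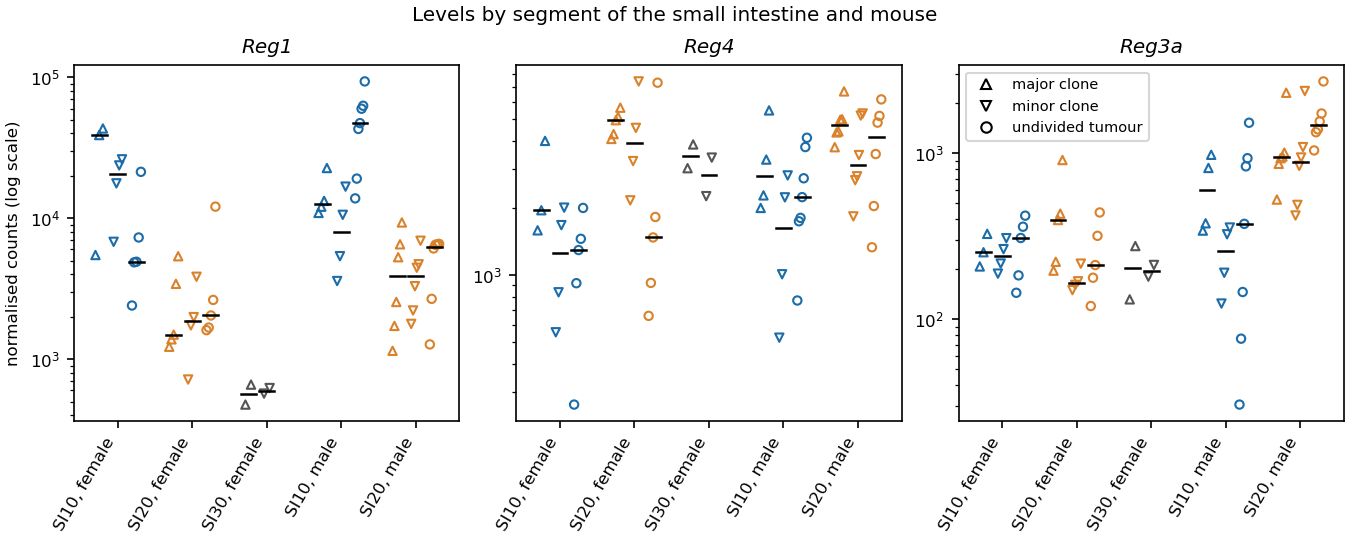
Signal of Reg1, Reg4 and Reg3a on a log scale by segment and mouse, 1 point for each library, with the medians. Reg1 is lower in SI20 than in SI10 in both mice and lowest in the SI30 tumours, and its segments do not overlap in the undivided tumours of the male mouse.

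The widest differences of the Reg3 lectins were between the animals. *Reg3b* was lower in the male mouse, with a log2 difference of -2.54 in undivided tumours (SE 0.68, limma adjusted p = 0.0116), 0.172 times the female level, and of -2.20 in divided tumours (SE 0.34, adjusted p = 0.000872), 0.217 times. *Reg3g* was lower by a log2 difference of -2.67 in undivided (SE 0.72, adjusted p = 0.0120) and of -2.22 in divided tumours (SE 0.36, adjusted p = 0.00122). Many genes differed between these animals, 19.1% of those tested in undivided and 13.1% in divided tumours, and with 1 mouse of each sex the tests measure only the spread between tumours of these animals. In undivided tumours *Reg3b* ran from 172348 through 260471 to 546206 in the female and from 1259 through 53407 to 506362 in the male mouse, so that the highest male tumours reached the female range. The lowest male tumours were 15, 17 and 18, numbered apart from 1 to 10, with *Reg3b* at 1259, 11675 and 17543 and *Reg3g* at 257, 3655 and 2373. Without them, a choice made after the data were seen, the difference was -1.66 for *Reg3b* (adjusted p = 0.0085) and -1.65 for *Reg3g* (adjusted p = 0.00384). In major clones it ran from 68229 through 279623 to 742002 in the female and from 17868 through 68750 to 113794 in the male mouse. The 5 members together took a median of 1.12% of the signal in female and 0.285% in male undivided tumours.

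*Reg3a* went the other way from its subfamily. It was higher in the male mouse by 1.42 in divided tumours (SE 0.25, limma adjusted p = 0.00254) and by 1.39 in undivided tumours, which did not pass (SE 0.56, adjusted p = 0.0795) but did without tumour 1 (1.60, adjusted p = 0.0370) or tumour 15 of the male mouse (1.70, adjusted p = 0.0130). Undivided female tumours ran from 120 through 260 to 439, and undivided male tumours from 30.7 through 1037 to 2698. Within the male mouse the SI20 tumours lay at 1037 through 1470 to 2698 and the SI10 tumours at 30.7 through 375 to 1522. The test of the segment difference between the mice gave 2.63 for *Reg3a* (unadjusted p = 0.0145, adjusted p = 0.851). *Reg1* was 1.69 higher in the male mouse in undivided tumours (SE 0.47, adjusted p = 0.0138) and 0.14 higher in divided tumours (95% confidence interval -0.77 to 1.06, adjusted p = 0.851). *Reg4* was 1.09 higher in undivided (adjusted p = 0.0522) and 0.11 higher in divided tumours (adjusted p = 0.802), and neither passed. The undivided difference of *Reg4* passed without any 1 of tumours 5 and 9 of the female and 4, 9 and 18 of the male mouse (1.16 to 1.34, adjusted p 0.0105 to 0.0447).

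**Figure D5:**
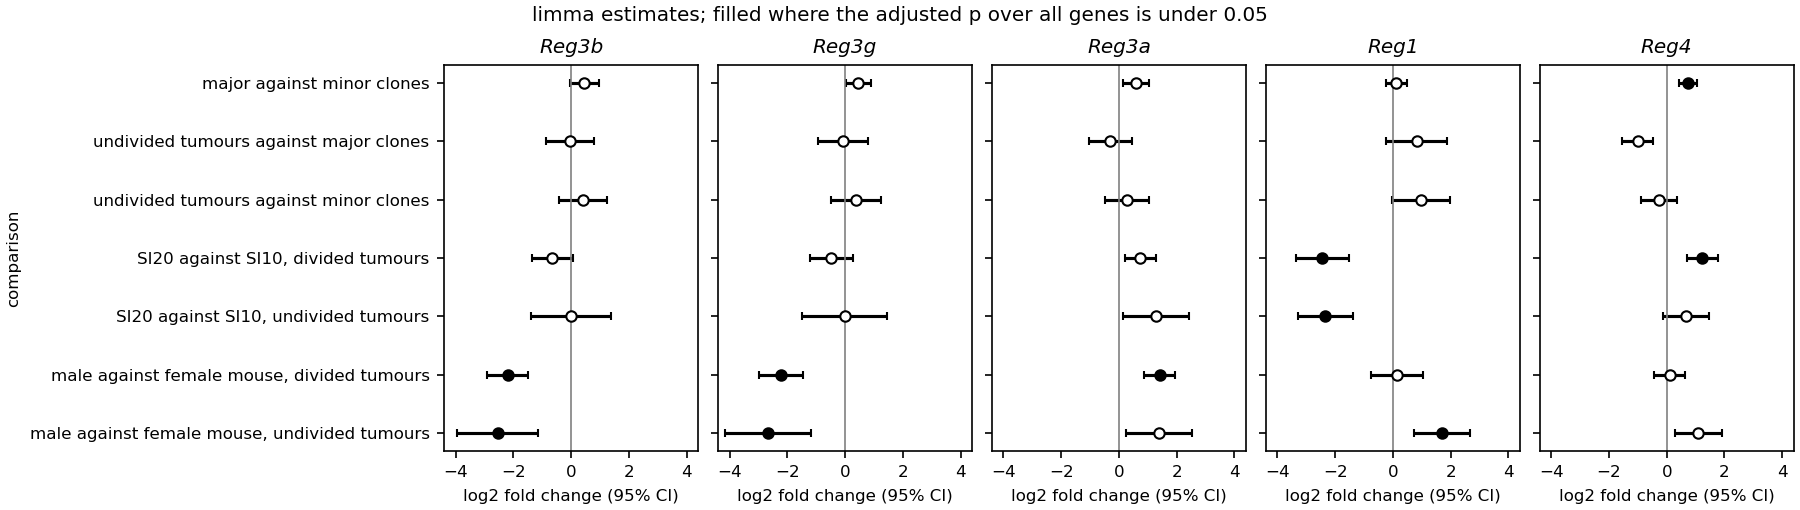
Log2 difference with its 95% confidence interval for each member in each of 7 comparisons, filled where the limma adjusted p is under 0.05. Reg4 is filled in major against minor clones and in SI20 against SI10 of divided tumours, Reg1 in both segment comparisons and between the mice in undivided tumours, Reg3a between the mice in divided tumours, and Reg3b and Reg3g in both comparisons of the mice.

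Some genes of the ligand, STAT3 and defence lists also differed between the mice. In undivided tumours 2 of 9 ligands tested were lower in the male mouse and none was higher, a share near the 19.1% of all genes: *Il17a*, the cytokine of type 17 lymphocytes (-3.0, adjusted p = 0.000308), and *Tnf* (-1.90, adjusted p = 0.00729). *Il17a* ran from 2.35 through 23.6 to 46.7 in the female and from 0 through 1.65 to 7.83 in the male mouse. Of 9 STAT3 genes, 2 were lower, again near that share: *Socs1* and *Socs3*, feedback inhibitors induced by STAT signalling (-1.56, adjusted p = 0.000785 and -1.66, adjusted p = 0.00287). *Socs3* ran from 1516 through 2496 to 3766 in the female and from 157 through 1068 to 1461 in the male mouse, without overlap. Of 22 epithelial defence genes, 10 were lower in the male mouse and 1 was higher (*Zg16*, a lectin of goblet and acinar cells), with a list median of -1.71 against -0.05 over all genes. Among the lower genes were *Nos2*, which makes nitric oxide (-3.22, adjusted p = 0.00165), the neutrophil chemokines *Cxcl2* (-2.94, adjusted p = 0.00871) and *Cxcl5* (-2.98, adjusted p = 0.0099), and *Fut2*, which fucosylates the epithelial surface (-0.94, adjusted p = 0.00847). The lowest value of *Nos2*, *Cxcl2* and *Cxcl5* among the 23 undivided tumours was 0. For genes of these lists no values with tumours left out are given, so the weight of single tumours is unknown.

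In divided tumours the STAT3 genes *Socs1* (-1.25, adjusted p = 0.00877), *Socs3* (-0.88, adjusted p = 0.0225) and *Stat3* (-0.37, adjusted p = 0.0423) were lower in the male mouse, as was *Il6st*, the shared receptor chain of the IL-6 family (-0.57, adjusted p = 0.0322). *Socs1*, *Socs3* and *Stat3* come from the same STAT3 list and *Il6st* from the list of receptors, beside the 13.1% of all genes that passed in divided tumours. Of the 22 defence genes, 3 were lower there and none was higher, near the 13.1% of all genes: *Ccl28*, a mucosal chemokine (-1.39, adjusted p = 0.00127), *Pigr* (-0.91, adjusted p = 0.00646) and *Nos2* (-2.45, adjusted p = 0.0161). No ligand passed in divided tumours, and *Cxcl2* had a difference of 0.10 (adjusted p = 0.908). Of the proposed receptors for Reg proteins (*Extl3*, *Egfr* and *Cd44*), only *Extl3* passed. *Extl3* was lower in the male mouse in undivided (-0.62, limma adjusted p = 0.00742) and divided tumours (-0.33, adjusted p = 0.023). The differences of *Cd44* were -0.89 (adjusted p = 0.0587) and -0.07 (adjusted p = 0.772). Those of *Egfr* were -0.58 (adjusted p = 0.471) and 0.10 (adjusted p = 0.850). Of all genes, 19.1% passed in undivided and 13.1% in divided tumours. Enterocyte markers went the other way from *Extl3*. In the male mouse 11 of 14 were higher in undivided tumours and 4 of 14 in divided tumours, and none was lower. Their summed signal in undivided tumours ran from 285682 through 711004 to 1160120 in the female and from 735874 through 1509890 to 2339610 in the male mouse. Of 11 Paneth cell markers none passed in undivided tumours and 1 was lower in divided tumours. The part of these genes and cell types in the differences of the Reg lectins was not tested.

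The closest genes of each member were taken by Pearson r of log2 levels over the 63 libraries, centred within mouse. For *Reg3g* they were *Gmds*, an enzyme of GDP-fucose synthesis (0.80), *Gpx2*, the gastrointestinal glutathione peroxidase (0.77), *B3galt5* (0.74), *Prss32* and *Bcl2l15* (both 0.70). *Reg3b* had *Gmds* (0.74), *Gpx2* (0.69), *B3galt5* (0.66), *Bcl2l15* and *Gm37214* (both 0.65), so 4 of its 5 closest genes were also among those of *Reg3g*. *Reg3a* was closest to the brush border peptidases *Enpep* (0.79) and *Ace* (0.78), *Gstp3* (0.79), *Cox7a1* and *Aoc1* (both 0.74). *Reg1* was closest to *Akp3*, an intestinal alkaline phosphatase (0.88), *Sult6b2* (0.87), *Slc40a1*, the iron exporter ferroportin (0.86), *Papss2* (0.86) and *Pdx1*, a transcription factor of the duodenum and pancreas (0.85). *Reg4* was closest to the goblet and secretory genes *Spink4* (0.82) and *Atoh1* (0.81), then *Fam174b* (0.80), *Galnt5* and *Klk1* (both 0.77). Each was picked as the closest, so no test is given.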

How the data were processed

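Processing by the authors, per the labels: tumour RNA was made into stranded polyA mRNA libraries, reads were trimmed (Trimmomatic 0.39) and counted per gene by Salmon 1.9.0 against GRCm39, with STAR 2.7.7a, Picard 2.27.3, FastQC 0.11.9 and DESeq2 also named. The deposited signal is these estimated counts scaled between libraries by the authors. The scaling is not given in the sources used here, and the values are not whole numbers.

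Mouse, segment and tumour came from the labels. Major and minor classes came from the study's source data by sample name. Pairing came from the tumour number in the titles, and the deviations of paired libraries from their class means had a median r of 0.265, over 0.1 in 17 of 20 tumours (different tumours: -0.0198). limma 3.58.1 in R 4.3.3 (eBayes with trend) was fitted on log2(value + 1) for all genes whose mean was 10 or more, with tumour as block for clones, and adjusted over all genes (Benjamini-Hochberg, threshold 0.05). Fold changes are on this scale, which understates changes of low genes. Permutation tests were two-sided with 100000 draws. The fits were checked on simulated data. Values and figures were made in Python 3.11.15 (numpy 2.4.6, pandas 2.3.3, scipy 1.17.1). Motifs were searched on both strands.

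Members, lists and the named genes were chosen with earlier results of these data known. Named genes were the members, at most 4 list genes that passed by smallest p in a list and comparison with those that define a list, and the 5 genes most like each member. Alternatives changed the pseudocount, filter, scaling, trend, block, test, mice and segments included, or left out 1 tumour. Results of 2 single genes of the lists are not reported here.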

Additional observations from a re-analysis of the deposited data

Results flagged for a closer look

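*Reg1* in undivided tumour 6 of the female mouse, from segment SI20, had a log2(value + 1) of 13.56, far from the other 4 SI20 tumours of that mouse, which lay between 10.65 and 11.36 (median 10.85). Its gap to the nearest of them was 0.755 of the range of the 5 tumours. This was the only such sample among 50 groups of 4 to 10 libraries examined over the 5 members, and chance alone marks about 5% of groups.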

How the results depend on the processing

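Of the alternatives to the values given, 233 counts of members and correlations and 1212 single differences kept their direction and their side of the threshold. Of the counts and correlations, 45 moved (counts, by over 1.5 times), 1 turned sign and 1 no longer passed. For major against minor clones, no member passed with no replicate block (*Reg4* adjusted p = 0.194), in the female or the male mouse alone, by the exact signed-rank test (limma replaced, *Reg4* adjusted p = 0.0537), or without the SI30 tumours and tumour 22 of the female mouse, a choice made after the data were seen: 0 members each. Leaving out 1 tumour gave 0 to 2 members there, 0 to 1 for segments in undivided and 0 to 2 in divided tumours. For segments in undivided tumours 0 members passed with no trend, in the female mouse alone and without male tumours 15, 17 and 18 (chosen after the data were seen). In divided tumours 1 passed with a pseudocount of 0.1, with no trend or in major clones alone, and 0 in minor clones or the male mouse alone. Between the mice, 1 member passed in undivided tumours of SI10 alone or SI20 alone. The cause of these changes was not tested, and each subset holds fewer tumours.

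Of single differences, 52 fell short of the threshold that they had passed, 12 passed it newly and 49 turned sign. In the female mouse alone, *Reg1* was -0.090 in major against minor clones, *Reg3a* -0.19 between segments of undivided tumours, and *Reg3b* 0.10 and *Reg3g* 0.16 in undivided tumours against major clones. In the male mouse alone, *Reg4* was 0.20 in undivided tumours against minor clones, and *Reg3b* and *Reg3g* 0.14 each between segments. With quantile scaling, the segment differences of *Reg3b* and *Reg3g* were 0.13 and 0.14, and with equal library sums 0.10 each. In minor clones alone, *Reg1* was -0.057 between the mice. Without male tumours 15, 17 and 18, *Reg3b* was 0.40 and *Reg3g* 0.46 against major clones, and their segment difference between the mice was -0.79 and -0.64, with 0.048 for *Reg4*. Leaving out 1 tumour gave -0.19 to 0.18 for *Reg3b* and -0.20 to 0.19 for *Reg3g* against major clones, and -0.49 to 0.30 and -0.53 to 0.28 between segments. Centred within mouse and segment, the correlation between clones was -0.23 for *Reg3a* and 0.52 for *Reg4*. Depth limits are unknown, since the values are scaled.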

Other observations

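The B lineage genes *Cd79a* and *Jchain* differed between the mice in divided tumours, where 13.1% of all genes passed. Both belong to a longer list of lymphoid markers. *Cd79a*, a chain of the B cell receptor complex (log2 difference -1.92, limma adjusted p = 0.0193), and *Jchain*, which joins secreted IgA (-1.36, adjusted p = 0.015), were lower in the male mouse there. In undivided tumours they had differences of -0.33 (adjusted p = 0.682) and -0.34 (adjusted p = 0.527).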
